A study of Mus musculus with 4 samples.

Results

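This account describes 9 genes that separate kinds of mouse B cell, *Ighm*, *Ighd*, *Cd5*, *Bhlhe41*, *Zbtb32*, *Fcer2a*, *Cr2*, *Cd9* and *Spn*, among the 28089 genes listed in the largest of 4 single-cell RNA-seq libraries of mouse ascites. The genes were chosen by name from what is known of B-1 and follicular B cells, with earlier results of these data known. They were read in cells gated as B cells by unique molecular identifiers (UMIs, tags that count each captured transcript once). A B-gated cell had at least 3 UMIs of *Cd79a* plus *Cd79b*, at most 1 UMI of *Cd3d*, *Cd3e* and *Cd3g*, at most 2 of *Lyz2* and at most 2 of the keratins *Krt7*, *Krt8*, *Krt18* and *Krt19*. The gate held 3041 of 18283 cells (16.6%) in the BTYNB library and 70 of 7042 cells (0.994%) in the combination library. It held 3 of 7834 cells of the control library and 1 of 12019 cells of the anti-PD-1 library, so these libraries were not used for the B-gated levels. Of the cells with at least 3 *Cd79a* plus *Cd79b* UMIs, other limits of the gate removed 434 of 3475 in BTYNB and 216 of 286 in combination. In control and anti-PD-1 they removed 28 of 31 and 38 of 39. The removed cells had medians of 11245 UMIs in BTYNB and 10547 in combination, and most were over the keratin limit. The gated shares are therefore not shares of all B cells. B-gated cells were split into those with at least 1 *Ighd* UMI (Ighd≥1, 2499 cells of BTYNB and 33 of combination) and those with none (Ighd=0, 542 and 37 cells). *Ighd* makes this split and the gate genes make the gate, so their differences across them are no finding. Cells with at least 2 UMIs of *Cd3d*, *Cd3e* and *Cd3g* (T-gated, 2481 cells of BTYNB and 158 of combination) served as background.

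All mice were C57BL/6 animals that had received ID8-Trp53-/- cells, a mouse ovarian surface epithelial line that lacks *Trp53*, by intraperitoneal injection 7 days before treatment. The BTYNB group received BTYNB, a small-molecule inhibitor of the RNA-binding protein IGF2BP1, at 50 mg/kg together with an isotype control antibody. The combination group received BTYNB at 50 mg/kg with a blocking antibody against PD-1 at 100 ng per dose, the anti-PD-1 group DMSO with that antibody, and the control group DMSO with the isotype antibody. Treatment was given repeatedly until ascites had accumulated. These doses are those of the sample labels, and the methods of the study state other ones. *Trp53* was lacking in the injected line only, and the B cells came from the host mouse. Ascites cells of all animals of a treatment were pooled into 1 library, so there was 1 sample per group, no replicate and no test. Differences are therefore given with 95% counting intervals, exact Poisson for levels, exact binomial (Clopper-Pearson) for shares and the matching interval for ratios, which cover counting error only and not the spread between mice. The study asked how IGF2BP1 inhibition, with and without PD-1 blockade, alters the cells of the ascites, and for these genes only differences between single libraries could be read.

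B cells of the body cavities are of several kinds. B-1 cells carry much surface IgM and little IgD, are made largely early in life, maintain themselves by division and secrete natural antibody. Follicular B-2 cells carry IgM with abundant IgD, recirculate through lymphoid follicles and carry the receptors CD23 and CD21. *Ighm* and *Ighd* encode the constant regions of IgM and IgD, which a naive B cell makes from 1 long transcript by alternative splicing and polyadenylation. *Bhlhe41* encodes a basic helix-loop-helix repressor needed by B-1a cells, and *Zbtb32* a zinc finger repressor known from B-1 and memory B cells. *Fcer2a* encodes CD23, the low-affinity IgE receptor, and *Cr2* encodes the complement receptors CD21 and CD35. *Cd5* marks the B-1a subset and also T cells, *Spn* encodes CD43, found on B-1 cells, plasma cells and T cells, and *Cd9* encodes a tetraspanin of B-1, marginal zone and many other cells.

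The promoters of 4 genes on which the results turn, the 2 transcription factor genes that were higher and the 2 receptor genes that were lower in Ighd=0 cells of BTYNB, are shown to give their sequence context. Of the 9 genes, 7 had promoter entries in RefSeq on GRCm38.p6, with 10 promoters in all, each 300 bases long from 250 bases before to 50 after a transcript start. All 4 genes lie on the minus strand, and each sequence is written 5′ to 3′ in the direction of transcription. The files were made on GRCm39, so these GRCm38.p6 positions are not positions in the deposited files. Bhlhe41 lay at chr6:145865371-145865670, Zbtb32 at chr7:30598860-30599159, Fcer2a at chr8:3694125-3694424 and Cr2 at chr1:195176670-195176969. Zbtb32 had 2 promoter entries and Fcer2a 3, of which the most upstream is shown, and the others held none of the 3 motifs searched.
Bhlhe41: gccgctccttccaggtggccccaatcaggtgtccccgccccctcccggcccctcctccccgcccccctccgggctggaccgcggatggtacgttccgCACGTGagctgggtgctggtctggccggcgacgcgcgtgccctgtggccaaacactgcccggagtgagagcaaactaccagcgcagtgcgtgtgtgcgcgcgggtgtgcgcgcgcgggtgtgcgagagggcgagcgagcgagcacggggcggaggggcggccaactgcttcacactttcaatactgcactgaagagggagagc
Zbtb32: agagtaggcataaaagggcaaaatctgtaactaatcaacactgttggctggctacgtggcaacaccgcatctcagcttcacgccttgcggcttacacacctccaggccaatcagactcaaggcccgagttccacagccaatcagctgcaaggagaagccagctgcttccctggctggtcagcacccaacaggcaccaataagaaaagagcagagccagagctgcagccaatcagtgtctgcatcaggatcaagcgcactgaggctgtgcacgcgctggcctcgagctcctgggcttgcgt
Fcer2a: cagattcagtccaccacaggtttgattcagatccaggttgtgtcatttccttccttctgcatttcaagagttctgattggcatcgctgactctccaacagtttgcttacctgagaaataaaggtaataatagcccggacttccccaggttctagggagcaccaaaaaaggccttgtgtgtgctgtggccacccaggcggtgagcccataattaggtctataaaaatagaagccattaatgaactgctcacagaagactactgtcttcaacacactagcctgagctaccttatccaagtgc
Cr2: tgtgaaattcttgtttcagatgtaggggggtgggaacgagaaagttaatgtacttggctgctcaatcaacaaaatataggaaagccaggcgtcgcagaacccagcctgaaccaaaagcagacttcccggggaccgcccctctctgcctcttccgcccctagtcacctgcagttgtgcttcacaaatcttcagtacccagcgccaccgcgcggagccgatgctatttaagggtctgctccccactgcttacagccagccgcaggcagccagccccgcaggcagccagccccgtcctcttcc
Capitals mark a match to CACGTG, the E-box letters read by basic helix-loop-helix factors, or to GAGGAA, the core of the PU.1 motif, or to ATTTGCAT, the immunoglobulin octamer, each searched on both strands. No match of one motif overlapped another. The Bhlhe41 promoter held 1 CACGTG starting at base 98, a motif that 7.15% of all 32851 promoters held, and no other letters of the 3 motifs were found in these 4 windows. GAGGAA was held by 28.3% and ATTTGCAT by 1.74% of all promoters. A match is a description of letters and not a binding site. Neither letters nor their absence say anything about the factors in these cells.

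The libraries differed in the depth of their cells. The deposited barcodes held at least 869 UMIs in BTYNB and at least 5115 in combination, and B-gated cells had a median of 1843 UMIs (range 899 to 20080) in BTYNB and 5930.5 (5115 to 11933) in combination. Ighd≥1 and Ighd=0 cells had medians of 1861 and 1751.5 UMIs in BTYNB and 5907 and 5945 in combination. Because small cells were lacking in the combination library, comparisons between the libraries are given over all B-gated cells and again over cells of at least 5115 UMIs, the floor of that library, which 77 B-gated cells of BTYNB and all 70 of combination reached. Over cells at that floor the gate held 77 of 5521 cells (1.39%, interval 1.10 to 1.74%) in BTYNB, against 16.6% (16.1 to 17.2%) over all depths, and 0.994% (0.776 to 1.25%) in combination. The intervals of the libraries overlapped above that floor, where BTYNB B-gated cells still had a higher median (7995 UMIs) than combination cells. Shared cell indices between libraries numbered from 0 to 4 per pair. The gated cells carried B cell markers, with at least 3 of the 10 listed B cell genes in 96.7% of BTYNB and 97.1% of combination B-gated cells, against 3.10% and 8.23% of T-gated cells. *Ms4a1*, which encodes CD20, had a UMI in 64.8% and 85.7% of B-gated cells, and *Bank1*, a B cell scaffold gene, in 86.5% and 90% of them.

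The IgM gene was high over the B-gated cells of both libraries. At least 2 *Ighm* UMIs were found in 2768 of 3041 BTYNB and 65 of 70 combination B-gated cells. In BTYNB, *Ighm* stood at 2971 CPM (UMIs of a gene per 1000000 UMIs summed over the cells, interval 2925 to 3018) in Ighd≥1 cells and at 2615 CPM (2526 to 2706) in Ighd=0 cells, with a UMI in 98.2% and 86.3% of the cells. T-gated cells of the same library had 151 CPM and a UMI in 22.5% of cells, and T-gated cells without any *Cd79a* or *Cd79b* UMI still had 100.3 CPM and 19.98%. Dendritic (145 CPM) and NK (116 CPM) classes gave a similar low level, whereas tumour cells gave 1.63 CPM, so a single *Ighm* UMI was not taken as IgM expression. On the log2 scale with 5 CPM added, *Ighm* was lower in Ighd=0 than in Ighd≥1 cells by a ratio of -0.18 (interval of the ratio of counts -0.24 to -0.13). Leaving out cells with at least 10 UMIs of *Jchain*, the joining chain of secreted IgM and IgA, brought the ratio to -0.01. There were 16 such cells, all of them Ighd=0.

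IgD was measured beside IgM in most BTYNB B cells and in fewer combination B cells. An *Ighd* UMI was found in 82.2% (80.8 to 83.5%) of BTYNB and 47.1% (35.1 to 59.4%) of combination B-gated cells. At the floor the BTYNB share was 63.6% (51.9 to 74.3%), an interval that overlaps that of combination. When every cell was thinned to 1000 UMIs, leaving out 32 shallower BTYNB cells, the shares were 67.5% (65.8 to 69.2%) and 20% (11.4 to 31.3%). T-gated cells had an *Ighd* UMI in 4.03% and 5.06% of cells, and in 1.24% and 2.22% where they had no *Cd79* UMI. Among Ighd≥1 cells, *Ighm* UMIs per *Ighd* UMI were 1.996 (1.94 to 2.05) in BTYNB, 2.76 (2.32 to 3.30) in BTYNB at the floor and 7.48 (5.94 to 9.53) in combination. The *Ighd* signal of the combination cells was thin, since 17 of the 33 Ighd≥1 cells (51.5%) held a single UMI, against 7 of 49 (14.3%) in BTYNB at the floor. Over all B-gated cells the ratio was 2.42 in BTYNB, 3.62 at the floor and 17.8 (14.3 to 22.5) in combination.

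Follicular receptor genes were lower in the Ighd=0 cells of BTYNB. *Fcer2a* stood at 437 CPM (420 to 456) in Ighd≥1 cells, with a UMI in 1272 of 2499 cells (50.9%). In Ighd=0 cells it stood at 205 CPM (181 to 232), with a UMI in 162 of 542 cells (29.9%). The log2 ratio of Ighd=0 to Ighd≥1 was -1.07 (-1.28 to -0.91). *Cr2* stood at 177 CPM (166 to 189) and 24.1% of Ighd≥1 cells against 70.0 CPM (56.1 to 86.3) and 12.2% of Ighd=0 cells, a log2 ratio of -1.28 (-1.67 to -1.02). Both genes were thus lower past 2-fold, as were 0.568% of the 9154 genes with at least 50 UMIs over both groups. T-gated cells had 9.68 CPM of *Fcer2a* and 2.48 CPM of *Cr2*, and T-gated cells without *Cd79* UMIs only 0.732 and 0.293 CPM, so both levels in Ighd=0 cells stood far above background.

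The B-1 transcription factor genes were higher in the Ighd=0 cells of BTYNB. *Bhlhe41* stood at 12.2 CPM (9.38 to 15.5) in Ighd≥1 cells and 46.9 CPM (35.7 to 60.5) in Ighd=0 cells, with a UMI in 59 (2.36%) and 38 (7.01%) of the cells. Its log2 ratio was 1.60, with an interval of the ratio without pseudocount of 1.41 to 2.48. *Zbtb32* stood at 3.04 CPM (1.74 to 4.94) and 29.4 CPM (20.7 to 40.6), with a UMI in 10 of 2499 and 25 of 542 cells (4.61%) and a log2 ratio of 2.10 (2.39 to 4.22 without pseudocount). *Spn* stood at 8.37 CPM (6.08 to 11.2) and 27.8 CPM (19.4 to 38.7), a log2 ratio of 1.30 (1.05 to 2.41 without pseudocount). The intervals of the 2 groups did not overlap for any of these 3 genes. They were higher past 2-fold, as 0.721% of the 9154 genes were, and 7 of the 8 members other than *Ighd* had the UMIs to be counted in this contrast. *Zbtb32* passed that filter with 53 UMIs in all, 37 of them in Ighd=0 cells. The 74 Ighd=0 cells without an *Ighm* UMI, with 23.0% of the UMIs of Ighd=0 cells, held 30 of the 59 *Bhlhe41* UMIs. They also held 16 of the 35 *Spn* UMIs and 6 of the 37 *Zbtb32* UMIs of Ighd=0 cells. Much of the *Bhlhe41* and *Spn* level thus lay in cells without a detected *Ighm* UMI. The T-gated cells had 1.96 CPM of *Bhlhe41* and 5.88 CPM of *Zbtb32*, so the *Zbtb32* level of Ighd≥1 cells was not above that of T-gated cells. BTYNB tumour cells of at least 5115 UMIs had 0.316 CPM of *Zbtb32*. The T-gated level of *Zbtb32* is thus a comparison and not a measure of noise. Against T-gated cells of BTYNB, 5 of the 9 members were past 2-fold higher in B-gated cells, as were 5.8% of genes, and 3 (*Cd5*, *Cd9* and *Spn*) were lower, as were 8.21%. In combination 5 members had the UMIs for that contrast, of which 3 were higher beside 6.82% of genes and 1 was lower beside 11.8%. Over all B-gated cells of BTYNB the share with a *Zbtb32* UMI (1.15%, 0.803 to 1.60%) was not above that of T-gated cells (1.53%, 1.09 to 2.10%).

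**Figure D1:**
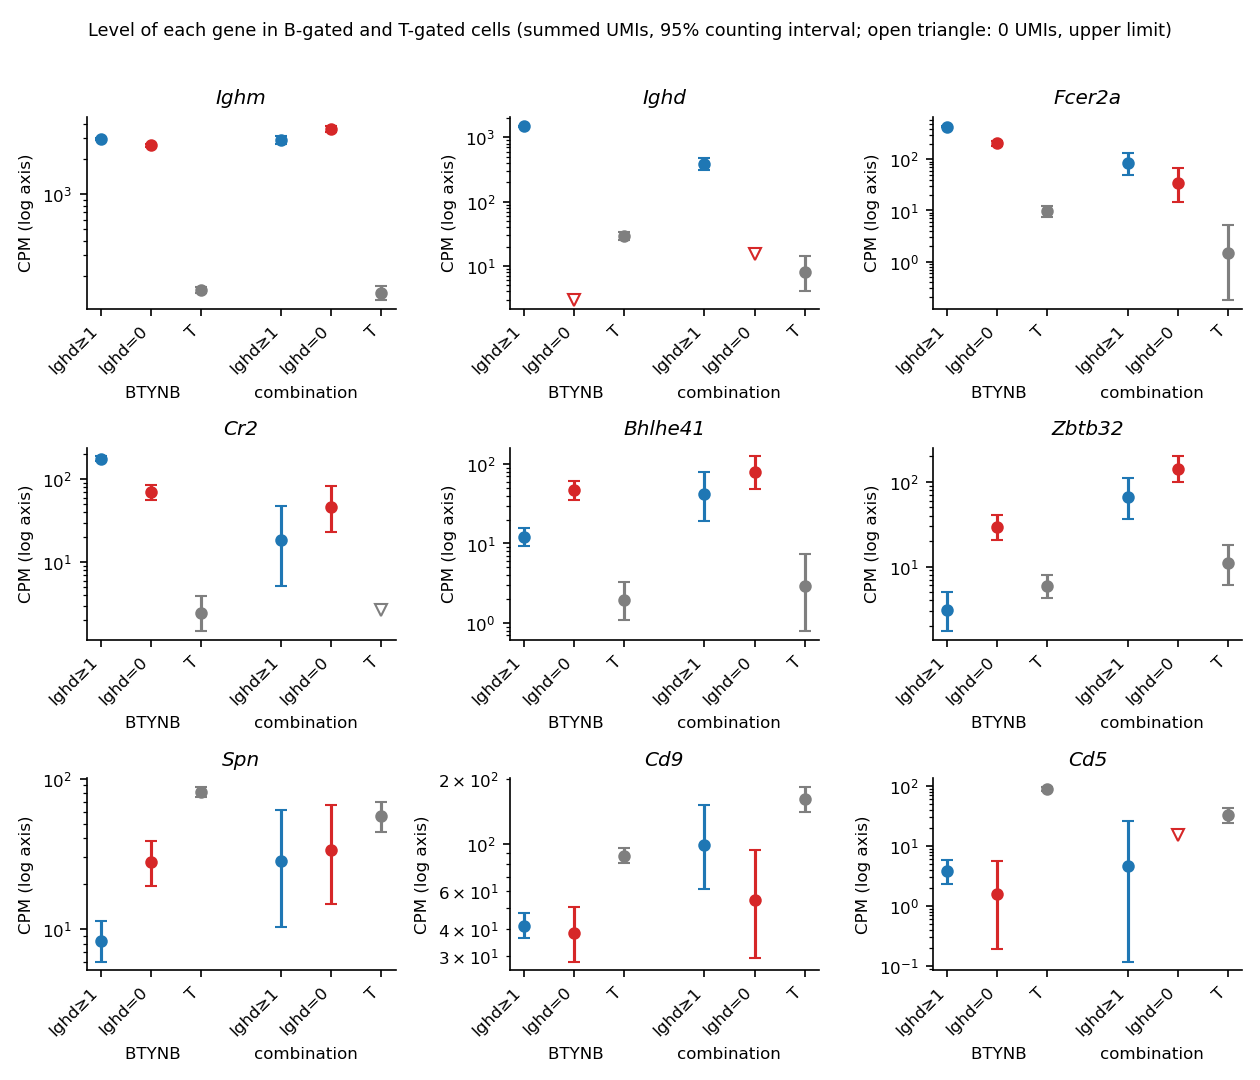
Level of each of the 9 genes (CPM, log axis) in Ighd≥1 cells (blue), Ighd=0 cells (red) and T-gated cells (grey) of the BTYNB and combination libraries. Points are summed UMIs with 95% counting intervals and open triangles are upper limits where no UMI was found. In BTYNB, *Fcer2a* and *Cr2* sit lower and *Bhlhe41*, *Zbtb32* and *Spn* higher in red than in blue, and *Cd5*, *Spn* and *Cd9* are highest in the T-gated cells.

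These differences varied with the depth of the BTYNB cells. Among cells of 3000 UMIs up to the floor, *Zbtb32* had a UMI in 18 of 67 Ighd=0 cells (26.9%, 16.8 to 39.1%) and 4 of 186 Ighd≥1 cells (2.15%, 0.589 to 5.41%), against 12 of 404 T-gated cells (2.97%). *Bhlhe41* had a UMI in 21 of 67 (31.3%, 20.6 to 43.8%) and 8 of 186 (4.30%, 1.87 to 8.30%) of these cells, against 5 of 404 T-gated cells (1.24%). In the same cells *Cr2* was found in 3 of 67 (4.48%) and 63 of 186 (33.9%), and *Fcer2a* in 18 of 67 (26.9%) and 111 of 186 (59.7%). The *Cr2* share of these Ighd=0 cells lay within the interval of the T-gated cells (2.97%, 1.54 to 5.13%). Of these T-gated cells, 39.1% held an *Ighm* UMI and 11.9% an *Ighd* UMI, so they were not free of B cell RNA. The match is therefore not read as absence of *Cr2*. *Zbtb32* had 1 UMI in the 719 B-gated cells under 1500 UMIs and none in the 1115 cells of 1500 to 2000 UMIs. Within cells of 1000 to 2000 UMIs the log2 ratio of *Bhlhe41* was -0.0047 (-1.75 to 1.41), that of *Fcer2a* -0.54 (-0.79 to -0.31) and that of *Cr2* -0.33 (-0.77 to 0.06), so the difference in *Fcer2a* was smaller there and those in *Bhlhe41* and *Cr2* were not detectable. Within cells above 2000 UMIs the ratios were 2.03 for *Bhlhe41*, 2.33 for *Zbtb32*, 1.44 for *Spn*, -1.67 for *Fcer2a* and -2.32 for *Cr2*. At the floor, with 28 Ighd=0 and 49 Ighd≥1 cells, *Zbtb32* was found in 2 and 3 cells and gave a ratio of -0.05 (-2.29 to 1.91), while *Bhlhe41* gave 1.95 (0.79 to 4.14) and *Fcer2a* -3.64 (-7.36 to -2.37). The BTYNB B-gated cells at the floor held 5503 of the 5547 *Jchain* UMIs of the gate. Cells with at least 10 *Jchain* UMIs were all Ighd=0 and held no *Zbtb32* or *Fcer2a* UMI. Their part in the ratios at the floor was not tested.

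**Figure D2:**
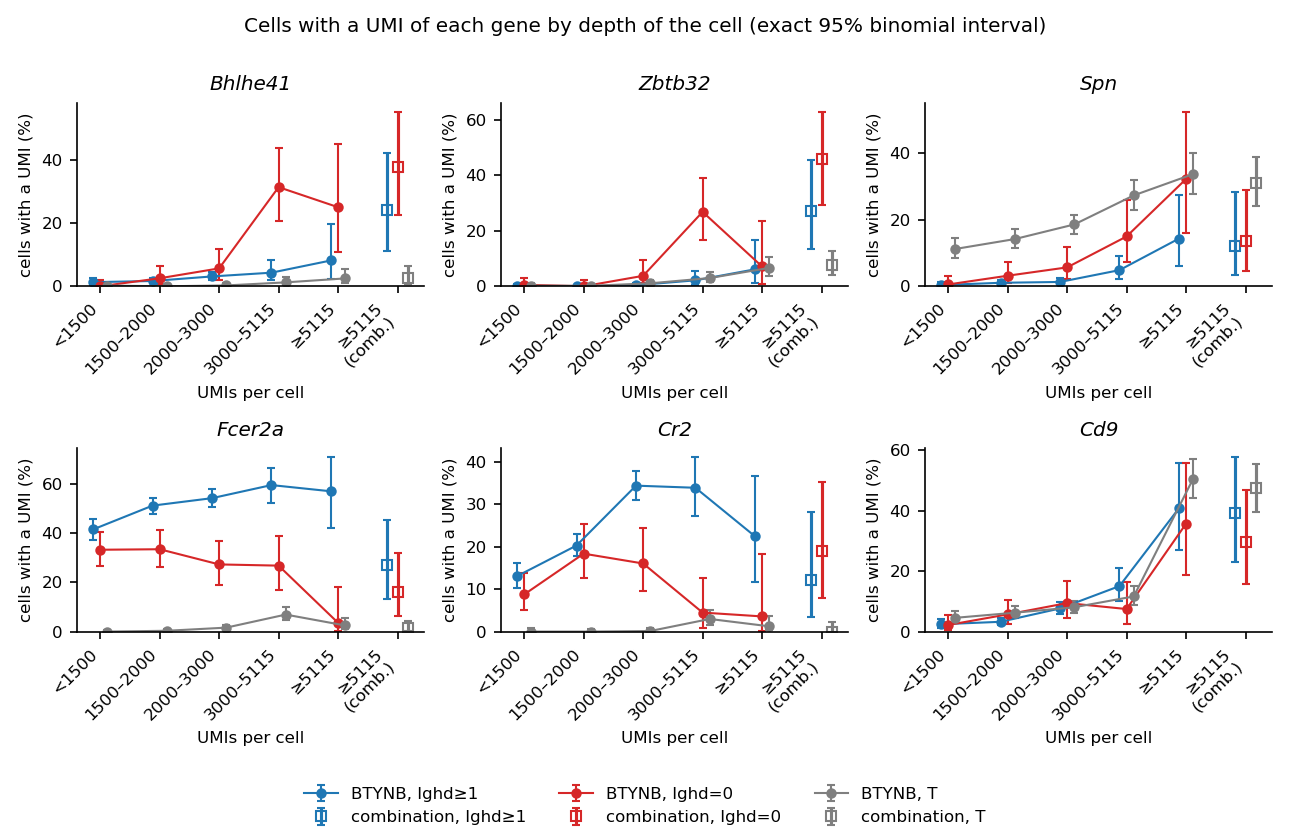
Share of cells with a UMI (%) of 6 genes by the number of UMIs in the cell, for Ighd≥1 (blue), Ighd=0 (red) and T-gated cells (grey) of BTYNB (filled) and for the combination cells (open squares, all of at least 5115 UMIs). Bars are exact 95% binomial intervals. In BTYNB cells of 3000 to 5115 UMIs, *Bhlhe41* and *Zbtb32* stand above the T-gated share in Ighd=0 cells, whereas *Fcer2a* and *Cr2* are lower in Ighd=0 than in Ighd≥1 cells.

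Thinning every cell to 1000 UMIs kept the order of the 2 groups for these genes. The groups were still those set by the unthinned *Ighd* counts, so the split itself kept its dependence on depth. After thinning, 81.9% of the Ighd≥1 cells still held an *Ighd* UMI. *Fcer2a* was then found in 33.3% (31.4 to 35.1%) of 2481 Ighd≥1 and 20.5% (17.1 to 24.2%) of 528 Ighd=0 cells, and *Cr2* in 14.3% and 7.39%. *Zbtb32* was found in 1 of 2481 cells (0.0403%) and 11 of 528 cells (2.08%, 1.04 to 3.70%), against 0.367% of T-gated cells. *Bhlhe41* was found in 1.41% (0.985 to 1.96%) and 2.65% (1.46 to 4.41%), intervals that overlap. *Spn* was found in 0.564% and 1.14%, which also overlap.

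*Cd9* did not separate the 2 groups over all cells, and *Cd5* had too few UMIs to tell. *Cd9* stood at 41.5 CPM (36.2 to 47.4) in Ighd≥1 and 38.2 CPM (28.2 to 50.6) in Ighd=0 cells of BTYNB, a log2 ratio of -0.11 (-0.60 to 0.34), below the 88.0 CPM of T-gated and the 340 CPM of tumour cells. Of its 266 UMIs in the gate, 27 came from 1 cell. In cells of at least 3000 UMIs the *Cd9* ratio was -0.86 (-1.64 to -0.27), so it was lower in the larger Ighd=0 cells. *Cd5* had 20 UMIs in Ighd≥1 and 2 UMIs in Ighd=0 cells of BTYNB and 1 UMI in the combination library, too few for a ratio. Its level of 3.38 CPM (2.12 to 5.11) in BTYNB B-gated cells was near those of NK cells (2.61, 0.710 to 6.67) and dendritic cells (1.495, 0.601 to 3.08), above that of tumour cells (0.251, 0.108 to 0.494) and far below the 89.6 CPM of T-gated cells, of which 19.9% held a *Cd5* UMI. Of the 22 *Cd5* UMIs of the B gate, 11 came from the 253 cells of 3000 UMIs up to the floor. In these cells 3.95% (1.91 to 7.15%) held a *Cd5* UMI, and no B-gated cell of BTYNB at the floor did. A *Cd5* level apart from that of NK or dendritic cells was not detectable at this depth. *Spn* was likewise higher in T-gated (81.2 CPM) and NK (173 CPM) cells than in either B-gated group.

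The Ighd=0 cells of BTYNB were a mixed set. Of the 542 cells, 468 (86.3%) held at least 1 *Ighm* UMI, 29 (5.35%) held at least 10 UMIs of switched isotypes and 16 (2.95%) at least 10 *Jchain* UMIs. A single *Ighm* UMI alone is not taken as IgM expression here either. These 16 cells made up 11.4% of all UMIs of the Ighd=0 cells, with a median of 8762 UMIs. *Igha*, the IgA constant region, had 18304 UMIs in 47 Ighd=0 cells, 99.5% of them in 22 cells with at least 10, against 37 UMIs in Ighd≥1 cells. The 16 cells with *Jchain* held 9 *Bhlhe41* and 10 *Spn* UMIs but no *Zbtb32*, *Fcer2a* or *Cr2* UMI. Without them the log2 ratio of Ighd=0 to Ighd≥1 was 1.54 for *Bhlhe41*, 2.25 for *Zbtb32*, 1.04 for *Spn*, -0.90 for *Fcer2a* and -1.11 for *Cr2*, so *Fcer2a* no longer passed 2-fold.

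The genes with the highest ratio in Ighd=0 cells of BTYNB were mostly antibody genes and had UMIs in 1 to 47 cells. They were *Igha*, *Jchain*, *Ighg1*, *Igkv5-45*, *Ighg2b*, *Slpi*, *Ighv15-2*, *Ighv1-9*, *Ighv1-39* and *Prg2*. *Ighg1*, of the IgG1 constant region, had 2351 UMIs in 13 cells, of which 2321 (98.7%) came from 1 cell, and all 88 *Ighv1-39* UMIs came from 1 cell. The genes with the lowest ratio were *Cpa3*, *Cma1*, *Septin3*, *Tpsb2*, *Xcr1*, *Mcpt4*, *Lef1*, *Cd209a*, *Hba-a1* and *Hba-a2*, of which most are known from mast cells, dendritic cells and erythrocytes. Of the 212 UMIs of *Cpa3*, a mast cell protease gene, 209 (98.6%) came from 1 Ighd≥1 cell. *Lef1*, a transcription factor gene of T cells and immature B cells, was spread over 114 Ighd≥1 cells (4.56%), with 29.1 CPM against 4.77 CPM in Ighd=0 cells. Dendritic cell markers summed to 85.6 CPM in Ighd≥1 and 28.6 CPM in Ighd=0 cells, neutrophil markers to 159 and 99.4 CPM, NK markers to 58.0 and 25.5 CPM, macrophage markers to 80.9 and 54.9 CPM, T cell markers to 204 and 167 CPM and tumour markers to 300.03 and 324 CPM, and their part in the results was not tested. The Ighd=0 cells held no UMI of *Xcr1* or *Cd3d*, and every other gene of these marker lists was detected in both groups. Most of the T cell sum was *Cd2*, with 723 UMIs over all BTYNB B-gated cells (111 CPM), against 84 of *Trac* and 106 of *Trbc2*.

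The 2 transcription factor genes met in the same cells. In BTYNB, 12 of 97 cells with *Bhlhe41* (12.4%, 6.56 to 20.6%) also held *Zbtb32*, against 23 of 2944 cells without it (0.781%, 0.496 to 1.17%). *Ighd* was found in 10 of 35 cells with *Zbtb32* (28.6%, 14.6 to 46.3%) and in 82.8% of the others, and *Fcer2a* in 7 of 35 (20%, 8.44 to 36.9%) and 47.5%. Cells with *Bhlhe41* were less apart from the rest, with *Ighd* in 60.8% against 82.9% and *Fcer2a* in 42.3% (32.3 to 52.7%) against 47.3%. *Spn* accompanied *Bhlhe41* in 13 of 97 cells (13.4%) against 1.90% of the others. Such shares also move with depth, because the cells with *Bhlhe41* or *Zbtb32* but neither receptor had a median of 3318.5 UMIs and the cells with a receptor only 1901.5. The floor held 11 BTYNB cells with *Bhlhe41*, of which 3 had *Zbtb32*, against 2 of 66 without it.

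In the combination library co-detection of the 2 genes rested on few cells and was not resolved from the share in other cells. *Zbtb32* was found in 12 of 22 cells with *Bhlhe41* (54.5%, 32.2 to 75.6%) and in 14 of 48 without it (29.2%, 17.0 to 44.1%). *Fcer2a* was found in 1 of 26 cells with *Zbtb32* (3.85%, 0.0973 to 19.6%) and in 14 of 44 without it (31.8%, 18.6 to 47.6%). Cells with *Bhlhe41* or *Zbtb32* and without *Fcer2a* and *Cr2* made up 32 of 70 B-gated cells (45.7%, 33.7 to 58.1%), against 62 of 3041 in BTYNB (2.04%) and 7 of 77 at the floor (9.09%, 3.73 to 17.8%). Cells with a receptor only made up 27.1% (17.2 to 39.1%) in combination, 55.4% in BTYNB and 37.7% (26.9 to 49.4%) at the floor. Cells with both kinds made up 5.71%, 1.91% and 7.79%. An *Ighd* UMI was present in 14 of the 32 combination cells with *Bhlhe41* or *Zbtb32* only (43.8%) and in 12 of the 19 with a receptor only (63.2%), shares whose intervals overlap.

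**Figure D3:**
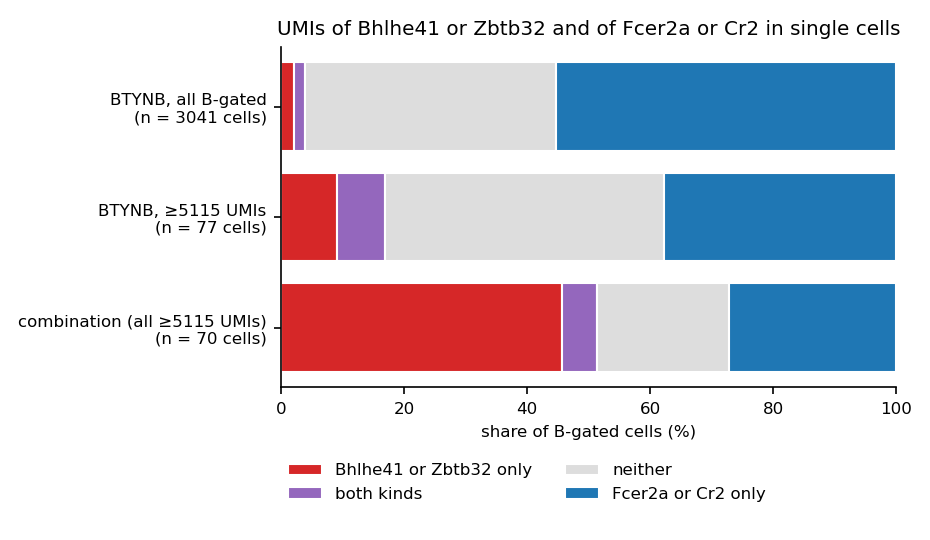
Share of B-gated cells (%) with a UMI of *Bhlhe41* or *Zbtb32* only (red), of both kinds (purple), of neither (light grey) and of *Fcer2a* or *Cr2* only (blue), in all BTYNB cells, in BTYNB cells of at least 5115 UMIs and in the combination cells. The red share is 2.04%, 9.09% and 45.7%, and the blue share 55.4%, 37.7% and 27.1%.

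Within the combination library the split on *Ighd* was weak. *Ighm* was the 1 member other than *Ighd* with at least 50 UMIs over both groups, at 3604 CPM (3366 to 3854) in 37 Ighd=0 and 2920 CPM (2695 to 3159) in 33 Ighd≥1 cells, a log2 ratio of 0.30 (0.15 to 0.46). Past 2-fold in this contrast were 0.819% of 1587 genes higher and 1.32% lower, and *Ighm* was in neither set. *Zbtb32* had 34 UMIs in Ighd=0 and 14 in Ighd≥1 cells, in 17 of 37 and 9 of 33 cells, a log2 ratio of 1.07 (0.19 to 2.13 without pseudocount). *Bhlhe41* had 19 and 9 UMIs (0.85, -0.29 to 2.25), *Fcer2a* 8 and 18 UMIs (-1.21, -2.74 to -0.05) and *Cr2* 11 and 4 UMIs (1.11, -0.45 to 3.41). *Spn* had 8 and 6 and *Cd9* 13 and 21 UMIs. Of these, *Zbtb32* and *Fcer2a* had intervals without 0, in the direction seen in BTYNB over all depths, although neither had the 50 UMIs to be counted. In BTYNB cells at the floor, a depth that all combination cells reached, the ratio was -0.05 for *Zbtb32* and -3.64 for *Fcer2a*. The direction of *Zbtb32* was thus not seen in BTYNB cells at the floor. The Ighd=0 cells there included antibody-secreting cells, whose part in these 2 ratios was not tested. Of the 26 *Fcer2a* UMIs of combination, 8 came from 1 cell. The *Fcer2a* interval reached 0.02 without cells with at least 10 *Jchain* UMIs. For *Bhlhe41*, *Cr2*, *Spn* and *Cd9* no difference was detectable at this depth. Of the 33 Ighd≥1 cells, 1 held 770 *Igha* and 187 *Jchain* UMIs, and 3 Ighd=0 cells held at least 10 *Jchain* UMIs.

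**Figure D4:**
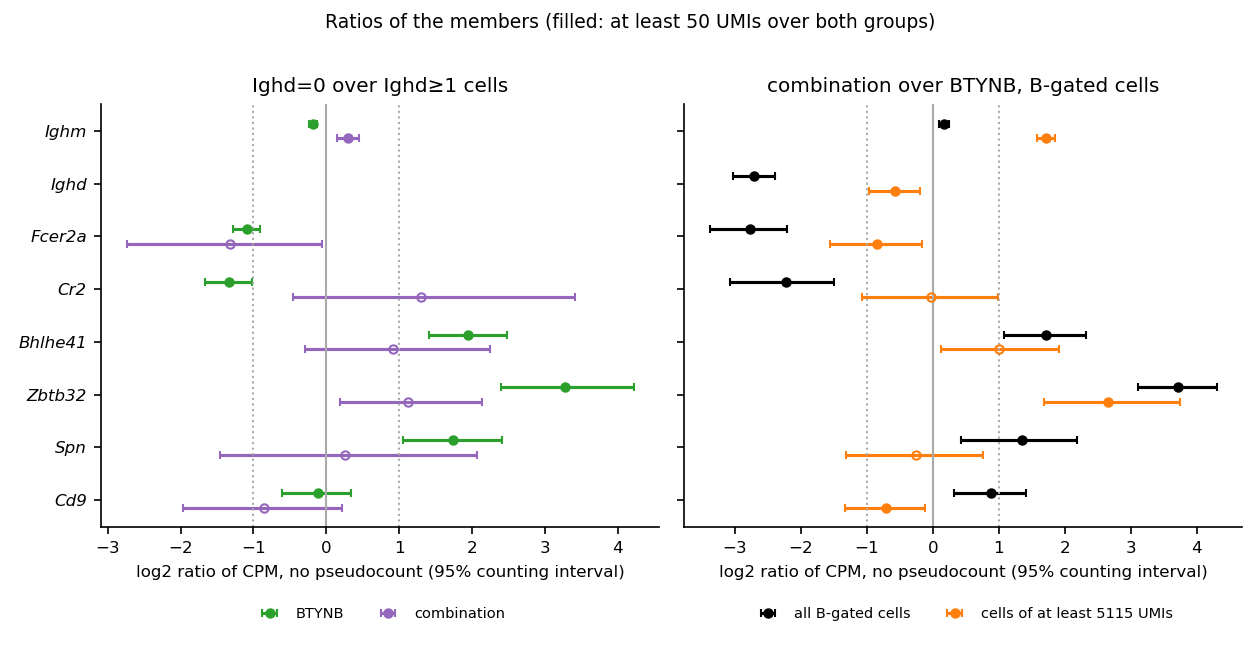
Left, log2 ratio of Ighd=0 to Ighd≥1 cells in BTYNB (green) and combination (purple), and right, log2 ratio of combination to BTYNB B-gated cells over all depths (black) and over cells of at least 5115 UMIs (orange), without pseudocount and with 95% counting intervals. Filled points had at least 50 UMIs over both groups, and dotted lines mark 2-fold. On the right, the interval of *Zbtb32* lies past 2-fold higher in both sets of cells and that of *Ighm* at the floor.

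B-gated cells of the combination library carried more *Zbtb32* than those of BTYNB, over all cells and at the floor. For *Bhlhe41* the difference was clear only over all cells, whose depths differed. *Zbtb32* stood at 8.14 CPM (6.10 to 10.6) in BTYNB, with a UMI in 35 of 3041 cells, and at 107 CPM (78.7 to 141) in combination, with a UMI in 26 of 70 cells (37.1%, 25.9 to 49.5%). No single cell carried this level, since the highest held 5 of the 48 UMIs and 11 cells held 2 or more. At the floor the BTYNB level was 17.0 CPM (8.47 to 30.4), in 5 of 77 cells (6.49%, 2.14 to 14.5%). The log2 ratio of combination to BTYNB was 3.09 over all cells (3.12 to 4.30 without pseudocount) and 2.35 at the floor (1.69 to 3.75). T-gated cells had a *Zbtb32* UMI in 6.64% of cells at the floor in BTYNB and 7.59% (3.99 to 12.9%) in combination. The BTYNB share at the floor was thus not above that of T-gated cells, and the combination share was. Thinned to 1000 UMIs, *Zbtb32* was found in 8 of 70 (11.4%, 5.07 to 21.3%) and 12 of 3009 cells (0.399%). *Bhlhe41* had 18.9 CPM in the BTYNB cells and 62.2 CPM (41.4 to 89.9) in the combination cells, a log2 ratio of 1.49 (1.07 to 2.32). At the floor its BTYNB level was 30.9 CPM (18.9 to 47.7), an interval that overlaps that of combination. The ratio there was 0.91 (0.13 to 1.92), from 20 and 28 UMIs, too few to be counted. The shares of cells were 11 of 77 (14.3%) and 22 of 70 (31.4%). Thinned to 1000 UMIs, *Bhlhe41* was found in 1.63% (1.21 to 2.15%) of BTYNB and 5.71% (1.58 to 14.0%) of combination cells, which also overlap.

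The follicular genes and IgD were lower in combination over all cells, and less so at the floor. The log2 ratio was -2.67 for *Ighd*, -2.66 for *Fcer2a* and -2.07 for *Cr2* over all cells. At the floor it was -0.56 (-0.97 to -0.19) for *Ighd*, -0.79 (-1.55 to -0.17) for *Fcer2a* and -0.02 (-1.08 to 0.99) for *Cr2*, with 33.9 CPM for BTYNB and 33.3 CPM for combination. *Spn* was higher over all cells (1.08) and not at the floor (-0.22, -1.32 to 0.76), and *Cd9* was 0.81 over all cells and -0.67 (-1.33 to -0.11) at the floor. *Ighm* was close over all cells (0.18, 0.10 to 0.25) and was higher at the floor (995 against 3280 CPM, 1.72, 1.59 to 1.86). Over all cells 3 members were past 2-fold higher and 3 lower, beside 4.7% and 7.99% of 9344 genes, and *Cd5* did not have the UMIs. At the floor 5 members had the UMIs to be counted, *Ighm*, *Ighd*, *Zbtb32*, *Fcer2a* and *Cd9*. Of these, *Ighm* and *Zbtb32* were past 2-fold higher, beside 3.59% of 3728 genes, and none was past 2-fold lower, as 3.06% of genes were. *Zbtb32* had 48 UMIs in combination and 11 in BTYNB there, so it was counted only through the library where it was high. The median ratio of all tested genes was -0.08 over all cells and 0.10 at the floor. The BTYNB cells at the floor included the antibody-secreting cells, and without cells with at least 10 *Jchain* UMIs the ratios at the floor were 1.43 for *Ighm*, 2.14 for *Zbtb32*, 1.31 for *Bhlhe41* and -1.05 for *Fcer2a*. In Ighd≥1 and Ighd=0 cells of combination the markers of T cells summed to 329 and 413 CPM, of macrophages to 169 and 333 CPM, of dendritic cells to 329 and 198 CPM, of NK cells to 230.4 and 25.3 CPM, of tumour cells to 329 and 261 CPM and of neutrophils to 4.70 and 0 CPM, with *Cd3e* and *Trbc1* at 0 in both, and their part in the difference between the libraries was not tested. Most of the T cell sum was *Cd2*, with 137 UMIs over all combination B-gated cells (304 CPM), against 4 UMIs each of *Trac* and *Trbc2*. The sum is therefore not read as T cell RNA. Among cells of at least 3000 UMIs in both libraries the ratio was 1.76 (1.31 to 2.55) for *Zbtb32*, 0.64 for *Bhlhe41*, -1.83 for *Fcer2a* and 0.63 for *Ighm*.

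Some genes outside the 9 differed across the split as well. Over all 9154 tested genes of the BTYNB split, 0.721% were past 2-fold higher and 0.568% lower, with a median log2 ratio of -0.10. In the Ighd=0 cells of BTYNB, 2 of 19 tested genes of a list of other B-1-associated genes were past 2-fold higher and none lower (median 0.26). The 2 genes were *Fcrl5*, an Fc receptor-like gene (15.6 to 48.5 CPM, 1.38), and *Cd80*, a co-stimulatory ligand (14.6 to 50.9 CPM, 1.51). Of 20 other follicular genes, *Fcmr*, the IgM Fc receptor gene, was lower past 2-fold (348 to 162 CPM, -1.08) and none higher, with a median of -0.38. Of 6 tested plasma cell genes 4 were higher, as were 6 of 9 tested isotype and light chain genes, and of 12 genes of the B cell receptor and its co-receptors none passed 2-fold (median -0.16). Marginal zone (5 tested), transitional (3), germinal centre (2) and activation (7) genes had none past 2-fold, and *Mki67* was the 1 of 5 proliferation genes that was higher (1.05). In the combination split, 0 of 10 tested B-1-associated genes were higher and 1 lower, and of 12 follicular genes 1 was higher and 2 lower. Over all 1587 tested genes of that split, 0.819% were higher and 1.32% lower.

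Between the libraries the same lists changed with the depth of the cells compared. Over all B-gated cells, 8 of 19 B-1-associated genes were higher in combination and none lower (median 0.86), and 11 of 20 follicular genes were lower and none higher (median -1.21). Of all 9344 tested genes, 4.7% were higher and 7.99% lower. *Fcrl5* had 22.0 CPM in the BTYNB cells and 171 CPM in the combination cells (2.71), and at 30.9 CPM at the floor (2.30). *Satb1*, a chromatin organiser gene of the follicular list, had 407 and 40.0 CPM (-3.19), and its ratio at the floor was -0.97. At the floor 4 of 13 B-1-associated genes were higher (*S100a6*, *Fcrl5*, *Ptpn22* and *Nfatc1*) and none lower, while 3 of 17 follicular genes were higher (*Cxcr5*, *Klf2* and *S1pr1*) and none lower. Of all 3728 genes tested there, 3.59% were higher and 3.06% lower. The medians at the floor were 0.53 for the B-1-associated and 0.24 for the follicular genes, so the follicular median had the opposite sign to that over all cells. Proliferation genes were higher in 6 of 6 over all cells, with *Mki67* at 41.9 and 231 CPM, and in 0 of 4 at the floor. The genes with the highest ratio over all cells were *Col1a1*, *Prkar2b*, *Gbp2b*, *Zbtb32* and *Rassf4*, and those with the lowest were *Ighg1*, *S100a9*, *S100a8*, *Satb1* and *Abca1*. Of the 52 *Col1a1* UMIs, a fibroblast collagen gene, 50 came from 1 cell, whereas *Rassf4*, a RAS-association domain gene, had 92 UMIs in 43 of 70 cells (204 against 25.6 CPM). *S100a8* and *S100a9*, neutrophil genes, had 293 and 446 UMIs in the BTYNB B-gated cells and none in combination.

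Across cell classes of the 4 libraries the members fell into different orders. In BTYNB, *Ighd*, *Fcer2a* and *Cr2* were highest in B-gated cells, followed by T-gated cells, with the other classes at or under 5.21, 2.58 and 0.561 CPM. *Bhlhe41* was highest in B-gated cells (18.9 CPM) and next in macrophages (3.65 CPM) and tumour cells (2.95 CPM), neighbours that did not differ beyond counting error. *Zbtb32* was at 9.12 CPM in NK, 8.14 CPM in B-gated and 5.88 CPM in T-gated cells over all depths, levels whose order is not resolved. *Cd5* was highest in T-gated cells, *Spn* in NK cells before T-gated cells, and *Cd9* in neutrophils (382 CPM, 340 to 428) and tumour cells (340 CPM, 333 to 346), whose intervals overlap. Over 16 classes of at least 50 cells, which share libraries, depth and free RNA, the genes most like *Ighd* by Pearson's r of log2(CPM + 5) were *Fcer2a* (0.988), *Bend5* (0.986) and *Fcrl1* (0.986), and those most like *Cr2* were *Gm51802* (0.997), *4930426D05Rik* (0.995) and *Fcer2a* (0.990). *Gm51802*, *Bend5* and *Cr2* were most like *Fcer2a*. Those most like *Cd5* were *Cd40lg*, *Foxp3* and *Gm44174*, like *Zbtb32* *Nr3c2* (0.93), *5330439K02Rik* and *Tnfrsf8*, and like *Bhlhe41* *Plpp3* (0.92), *Gm43696* and *Fam43a*. *Spata48*, *Usf3* and *Ankrd52* were most like *Ighm*, *Rab6a*, *Anxa1* and *Prr13* most like *Cd9*, and *Hmgn5*, *Cracr2a* and *Hcst* most like *Spn*. Only 2 of the 16 classes were B-gated cells, and 2 were T-gated cells.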

How the data were processed

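BD Rhapsody whole-transcriptome libraries of ascites cells, 1 per treatment, were read from the deposited files. Values are UMI counts per gene and cell, which the authors made with the BD Rhapsody Sequence Analysis Pipeline on GRCm39, and no normalization was applied before deposit. Cells with fewer than 200 genes or over 33% mitochondrial UMIs (13 genes) were left out, which kept 7834, 18283, 12019 and 7042 cells of control, BTYNB, anti-PD-1 and combination, with median depths of 9430.5, 2562, 6908 and 9480.5 UMIs per deposited barcode. Doublets were not removed in the main values. Scrublet (in scanpy 1.11.5) marked 3.05% of BTYNB and 0.511% of combination cells, and leaving out the 5% with the highest scores was an alternative.

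UMIs were summed over the cells of a class and scaled to 1000000 (CPM). Ratios are log2 with 5 CPM added, their intervals are of the raw ratio, and genes with at least 50 UMIs over both groups were counted, a gene past 2-fold being called. With 1 pooled library per group no test was run. Thinning used 1000 UMIs per cell (seed 1). Genes named beyond the members had the largest ratios among counted genes, 10 in each direction for the split in BTYNB and 5 in each direction between libraries, leaving out *Ighd* and the gate genes. Likeness was Pearson's r over classes of at least 50 cells, among genes with at least 100 UMIs. The 9 members, the gene lists and the alternatives were chosen with earlier results of these data known. Python 3.11.15, numpy 2.4.6, scipy 1.17.1 and pandas 2.3.3 were used. The summing and ratio steps were tested on simulated data.
One alternative setting is not reported here.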

Additional observations from a re-analysis of the deposited data

Results flagged for a closer look

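The ratio of Ighd=0 to Ighd≥1 cells had opposite signs in the libraries for 2 members. For *Ighm* it was -0.183906 in BTYNB and 0.303218 in combination on the log2 scale. For *Cr2* it was -1.2783 in BTYNB, from 88 and 930 UMIs, and 1.10941 in combination, from 11 and 4 UMIs, where the interval included 0. With 1 library per group the difference between the libraries was not tested.

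Cells with at least 3 *Cd79a* and *Cd79b* UMIs that failed another limit of the gate, which the report does not use, also held *Fcer2a*. It was found in 150 of 434 such cells of BTYNB (34.5622%) and 33 of 216 of combination (15.2778%), against 1.93% and 1.27% of T-gated cells.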

How the results depend on the processing

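No paired analysis was possible because each treatment had 1 pooled library and no test was run, and for the same reason no replicate could be left out. Causes were not tested. The share of B-gated cells in BTYNB (16.6%) was 15.9% with no filter on cells, 10.03% under a stricter and 18.0% under a looser gate, 1.39% at the common floor and 3.99% in cells of at least 3000 UMIs, and in combination (0.994%) 0.383% under the stricter gate. The *Ighd* share in BTYNB (82.2%) was 63.6% at the floor and 71.2% in cells of at least 3000 UMIs. Settings with 3000 UMIs or *Jchain* were chosen after seeing the data.

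Genes past 2-fold higher in Ighd=0 cells of BTYNB (66) numbered 120 with the split made after thinning, 37 with the mean over cells, 39 with a pseudocount of 20, 106 and 23 with at least 1 and 200 UMIs, and 23 without cells of at least 10 *Jchain* UMIs. Those lower (52) numbered 88 under the stricter gate, 456 at the floor, 8 after thinning, 148 and 11 with pseudocounts of 1 and 20, 17 with at least 200 UMIs and 303 in cells of at least 3000 UMIs. Scaling by the median of ratios gave 77 higher and 37 lower. In combination, those higher (13) numbered 44 against cells with at least 2 *Ighd* UMIs, 75 after thinning, and 1203 and 0 with at least 1 and 200 UMIs, and those lower (21) 9 under the stricter gate, 34 after thinning, and 1412 and 0 with at least 1 and 200 UMIs. Between the libraries, those higher in combination (439) numbered 134 at the floor, 94 there without *Jchain* cells, 184 with a pseudocount of 20, 737 and 183 with at least 1 and 200 UMIs and 77 in cells of at least 3000 UMIs. Those lower (747) numbered 1170 under the stricter gate, 114 at the floor, 125 there without *Jchain* cells, 223 with a pseudocount of 20, 442 with at least 200 UMIs and 204 in cells of at least 3000 UMIs.

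Ratios past 2-fold that changed sign were the split ratio of *Bhlhe41* in BTYNB within 1000 to 2000 UMIs (-0.0047), that of *Zbtb32* at the floor (-0.051), and *Spn* between the libraries at the floor (-0.22) and there without *Jchain* cells (-0.19). The split within 1000 to 2000 UMIs gave no value in combination, whose cells were all deeper. Of 593 ratios of members under alternatives, 21 had the opposite sign, 4 of them of ratios past 2-fold and 17 of ratios within it. The latter included *Cd9* between the libraries (0.81, and -0.67 at the floor), *Cd9* in the BTYNB split under 6 alternatives, and *Ighm* in that split (-0.18, and 0.19 among Ighd=0 cells with an *Ighm* UMI). *Cd5* had too few UMIs for a ratio, and in the combination split *Ighm* was the 1 member besides *Ighd* with the UMIs to be counted.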
